A study of Mus musculus with 56 samples.

Results

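Expression of 8 genes of the TH2 program was examined across helper T cell subsets that lack ornithine decarboxylase or deoxyhypusine hydroxylase. They were chosen by gene symbol, as 3 cytokine genes (Il4, Il5 and Il13), 3 transcription factor genes (Gata3, Pparg and Bhlhe41) and 2 receptor genes (Il4ra and Il1rl1), and make up 8 of the 47937 genes listed in the count tables. RNA was sequenced from CD4+ T cells of spleen and lymph nodes of C57BL/6 mice, isolated as naive cells and activated with anti-CD3, anti-CD28 and IL-2, and kept under polarizing conditions until day 4. Controls, called WT, came from mice without Cre recombinase. The other cells carried loxP sites around exons of Odc or of Dohh and Cre under the CD4 promoter, which acts in thymocytes that will become CD8+ as well as CD4+ T cells, and their libraries, labelled ODC_KO and DOHH_KO, are called Odc-/- and Dohh-/- here. All groups therefore share the strain, the activation with its IL-2 and, within a subset, the polarizing medium. For polarization TH1 cells received IL-12, further IL-2 and anti-IL-4, TH2 cells received 10 ng/mL IL-4 with further IL-2 and 4 µg/mL anti-IFN-γ, TH17 cells received IL-6, TGF-β, IL-1β, anti-IL-4 and anti-IFN-γ, and Treg cells received TGF-β, further IL-2, anti-IL-4 and anti-IFN-γ. Each deletion has its own table with its own WT libraries, here called the Odc series (16 WT and 15 Odc-/- libraries, 4 a group except 3 of Odc-/- TH2 cells) and the Dohh series (12 WT and 12 Dohh-/- libraries, 3 a group).

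TH2 cells direct immunity to helminths and allergic inflammation. IL-4 binds a receptor that contains the IL-4Rα chain and acts through the transcription factor STAT6 to raise GATA3, which opens the locus of the TH2 cytokines and drives IL-5 and IL-13. IL-5 supports eosinophils, and IL-13, which signals through IL-4Rα as well, drives mucus production and smooth muscle responses. PPARγ and BHLHE41 (also called DEC2) are factors of effector TH2 cells, and ST2, the product of Il1rl1, is the receptor for the alarmin IL-33 on memory TH2 cells, Treg cells, group 2 innate lymphoid cells, basophils and mast cells. Ornithine decarboxylase makes the polyamine putrescine, and deoxyhypusine hydroxylase completes hypusine, an amino acid made from the polyamine spermidine on the translation factor eIF5A, so that both deletions touch 1 pathway. The comparisons ask whether the TH2 program is kept in TH2 cells, and kept out of the other subsets, when that pathway is cut.

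The 3 cytokine genes lie side by side on mouse chromosome 11 (GRCm38, the assembly also called mm10). Il4 (ENSMUSG00000000869.12, chr11:53602982-53618669, minus strand) and Il13 (ENSMUSG00000020383.1, chr11:53631324-53634702, minus strand) are 12654 bases apart. Il5 (ENSMUSG00000036117.2, chr11:53720794-53725106, plus strand) follows 86091 bases further on, with Rad50 (chr11:53649519-53707319) in between. Gata3 (ENSMUSG00000015619.10, minus strand) is at chr2:9857078-9890034. Pparg (ENSMUSG00000000440.12, plus strand) and Bhlhe41 (ENSMUSG00000030256.11, minus strand) are at chr6:115360951-115490399 and chr6:145858243-145865558. Il4ra (ENSMUSG00000030748.9, plus strand) is at chr7:125552120-125579474 and Il1rl1 (ENSMUSG00000026069.15, plus strand) at chr1:40429570-40465415. Exons of other genes overlapped 27.1% of the exon bases of Il5 (Gm12214, antisense), 19.0% of those of Bhlhe41 (Gm43909, antisense), 9.51% of those of Il4ra (Gm44876, antisense) and 5.83% of those of Gata3, and none of the exon bases of Il4, Il13, Pparg and Il1rl1. Whether the authors' counting used strand is not given in the sources used here.

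The 250 bases before the annotated starts of the 3 linked cytokine genes (both starts of Il4), and before both starts of Il1rl1, are printed because the cytokine genes of this locus changed unequally and Il1rl1 changed most. They are RefSeq promoter windows of GRCm38.p6, 5′ to 3′ on the strand of the gene. Capitals mark a GATA motif (AGATAA or TGATAA on either strand) or a STAT6 motif (TTCNNNNGAA, where N is any base).
Il4, first start, chr11:53618666-53618915, minus strand: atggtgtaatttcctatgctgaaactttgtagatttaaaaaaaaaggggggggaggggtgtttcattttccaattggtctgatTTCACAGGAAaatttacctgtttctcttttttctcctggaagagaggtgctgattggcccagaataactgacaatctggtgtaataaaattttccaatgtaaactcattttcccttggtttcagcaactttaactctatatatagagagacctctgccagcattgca
Il4, second start, chr11:53617339-53617588, minus strand: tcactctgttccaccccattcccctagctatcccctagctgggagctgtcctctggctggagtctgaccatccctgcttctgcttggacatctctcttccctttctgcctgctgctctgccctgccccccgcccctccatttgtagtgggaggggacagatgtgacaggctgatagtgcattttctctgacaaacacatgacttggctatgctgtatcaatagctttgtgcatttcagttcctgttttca
Il5, chr11:53720544-53720793, plus strand: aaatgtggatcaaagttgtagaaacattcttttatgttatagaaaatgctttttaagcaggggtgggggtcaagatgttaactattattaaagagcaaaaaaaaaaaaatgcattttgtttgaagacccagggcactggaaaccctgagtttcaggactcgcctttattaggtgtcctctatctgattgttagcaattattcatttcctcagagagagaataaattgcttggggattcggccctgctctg
Il13, chr11:53634703-53634952, minus strand: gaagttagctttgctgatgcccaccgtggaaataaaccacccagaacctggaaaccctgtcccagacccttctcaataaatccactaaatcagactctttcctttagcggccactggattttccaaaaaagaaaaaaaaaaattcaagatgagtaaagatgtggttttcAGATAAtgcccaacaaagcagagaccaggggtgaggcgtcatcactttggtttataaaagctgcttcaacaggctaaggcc
Il1rl1, first start, chr1:40429320-40429569, plus strand: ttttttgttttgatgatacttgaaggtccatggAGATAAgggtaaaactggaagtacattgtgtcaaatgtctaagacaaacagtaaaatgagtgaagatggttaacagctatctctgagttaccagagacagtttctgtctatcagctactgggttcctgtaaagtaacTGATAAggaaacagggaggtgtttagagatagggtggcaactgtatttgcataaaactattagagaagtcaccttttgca
Il1rl1, second start, chr1:40439379-40439628, plus strand: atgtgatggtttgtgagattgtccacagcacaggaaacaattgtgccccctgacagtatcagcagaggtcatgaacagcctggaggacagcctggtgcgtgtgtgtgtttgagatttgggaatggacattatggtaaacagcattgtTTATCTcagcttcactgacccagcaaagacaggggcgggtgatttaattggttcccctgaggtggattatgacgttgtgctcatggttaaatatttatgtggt

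The Il13 window held 1 GATA motif, 81 bases before the start, and the first Il4 window held 1 STAT6 motif, 167 bases before the start, whereas the second Il4 window held neither motif. The first Il1rl1 window held 2 GATA motifs (217 and 80 bases before the start) and the second held 1 (103 bases before it), and the Il5 window held neither motif as spelled. Over all 12 windows of the 8 genes, 2 genes had a GATA motif. Gata3, Pparg and Il4ra had neither motif, and Bhlhe41 had the E-box CACGTG, the letters that factors of its own family bind, 153 bases before its start. Of 32851 windows of all genes of that length, 16.6% held the GATA motif, 5.85% the STAT6 motif and 6.02% that E-box, so that these letters are common. The matches describe the printed sequence only.

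Total counts ranged from 5905374 to 9145214 a library in the Odc series and from 6572148 to 12576933 in the Dohh series. A transcript with no read could therefore have had up to 3 counts, or 0.328 to 0.508 counts per 1000000 (CPM) and 0.239 to 0.456 CPM, where the limit covers counting error only. Levels below are CPM after scaling of library sizes by the trimmed mean of M-values, and levels of different genes are compared only as CPM per kilobase of exon. The counts of Odc1 and Dohh sum all exons, those that stay after recombination included. Odc1 overlapped between Odc-/- and WT libraries in TH1, TH2 and Treg cells and was lower in Odc-/- TH17 cells (476 to 618 CPM against 669.5 to 859.9 CPM), and Dohh was at 45.2 to 148 CPM in Dohh-/- against 31.5 to 45.9 CPM in WT libraries, so that these counts do not check the labels.

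The Dohh-/- libraries stood apart from the label of CD4+ T cells in several markers. Cd4 was at 22.1 to 79.7 CPM in them against 661 to 968 CPM in WT libraries, and Trac, the constant part of the α chain of the T cell receptor, was at 71.7 to 169 CPM against 296 to 524 CPM. Trdc, its δ chain counterpart, chosen after its values were seen, was at 282 to 676 CPM against 14.2 to 32.9 CPM. Cd5 was at 23.3 to 87.0 CPM in Dohh-/- against 434 to 730 CPM in WT libraries. Cd3e overlapped between the genotypes (98.1 to 326 CPM in Dohh-/- and 186 to 261 CPM in WT libraries). Cd4 of the Odc series was at 273 to 694 CPM in Odc-/- and 441 to 1032 CPM in WT libraries, and Trdc at 49.2 to 254 CPM against 6.30 to 28.9 CPM. In bulk RNA, fewer cells of a type and less RNA per cell cannot be told apart, and the part of these shifts in the results below was not tested. No label says that the replicates of a group came from separate animals, so that p-values measure the spread between these libraries, which may be technical.

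In WT cells 6 of the 8 transcripts were higher in TH2 than in TH1 cells in each series, beside 4.42% of all genes in the Odc and 2.95% in the Dohh series. A gene was called when its fold change passed 2 and its adjusted p fell below 0.05 (the quasi-likelihood test of edgeR, adjusted after Benjamini and Hochberg over all genes tested). All 8 genes passed the filter on low counts in both series, Il5 through its TH2 libraries. Of the Odc series, 7 of 8 genes were called in TH2 against TH1 cells (8.87% of all genes), 6 in TH2 against TH17 cells (17.5%) and 7 in TH2 against Treg cells (21.1%). These counts were 6 (6.21%), 5 (13.7%) and 6 (17.1%) in the Dohh series. Since the genes were chosen as TH2 genes, this is a check of the cultures.

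Il4, Il13, Gata3 and Pparg were higher in WT TH2 cells than in each other WT subset in both series. Il5 was called in these comparisons too. Since it passed the low-count filter through its TH2 libraries, no conclusion is drawn from those calls. Gata3, the lineage factor, was at 258 ± 15.1 CPM (SD, n = 4) in WT TH2 cells of the Odc series and 232 ± 13.8 CPM (SD, n = 3) in those of the Dohh series. Its excess over TH1 cells was 35.1-fold in the Odc series and 24.4-fold in the Dohh series, but over Treg cells only 5.74-fold and 4.49-fold, because WT Treg cells held 27.9 to 60.0 CPM. Il4ra was less restricted. It exceeded Treg cells 3.81-fold and 3.93-fold, but TH1 and TH17 cells by less than 2-fold in both series (1.31-fold to 1.76-fold). Il1rl1 showed no TH2 excess that was called: its WT level was lower in TH2 than in TH1 cells of the Odc series (log2 difference -1.97 ± 0.59 (SE), adjusted p = 0.0136), and no other WT comparison of it passed the thresholds.

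Per kilobase of exon, the order of the 8 transcripts in WT TH2 cells of the Odc series ran from Il13 (335 ± 148 CPM per kb, SD, n = 4) and Il4ra (222 ± 15.5) over Gata3 (64.7 ± 3.80), Il4 (47.4 ± 12.3) and Il5 (31.6 ± 11.2) to Pparg (8.27 ± 0.775), Bhlhe41 (0.935 ± 0.259) and Il1rl1 (0.305 ± 0.0213). The top neighbours, Il13 and Il4ra, differed by less than the SD of Il13. The order in the Dohh series began with Il4ra (214 ± 32.3 CPM per kb, SD, n = 3) and Il13 (185 ± 29.5), which differed by less than the SD of Il4ra. In Dohh-/- TH2 cells Il13 led with 1339 ± 270 CPM per kb, and Il5 came next at 178 ± 42.4.

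The TH2 bias of Il4, Il13, Gata3 and Pparg was also present in both kinds of deleted cells. Il5 was called as well and is included in the counts below. It passed the low-count filter through its TH2 libraries, so that no conclusion is drawn from its calls. In Odc-/- cells 6 of 8 genes were called in TH2 against TH1 cells (6.72% of all genes), 6 against TH17 cells (15.1%) and 7 against Treg cells (18.4%). In Dohh-/- cells 5 were called against TH1 cells (6.9%), 8 against TH17 cells (14.6%) and 6 against Treg cells (10.7%). Bhlhe41 differed from Il4, Il13, Gata3 and Pparg. Its WT level in TH2 cells of the Odc series exceeded the other subsets 8.90-fold to 13.0-fold, whereas no subset comparison of Odc-/- cells called it, with log2 differences of -1.08 ± 0.62 (SE) to 0.17 ± 0.68. In the Dohh series its WT level in TH2 cells was called above that in TH1 cells (adjusted p = 0.015) but not above that in TH17 cells (adjusted p = 0.312) or Treg cells (adjusted p = 0.0769, and 0.0406 when libraries of the same number were paired within a genotype). In Dohh-/- cells it was lower in TH2 than in TH17 cells (log2 difference -3.00 ± 0.98 (SE), adjusted p = 0.0326), a call that was lost with that pairing (log2 difference -1.96, adjusted p = 0.15).

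Il4, the cytokine that induces and marks TH2 cells, passed the test in TH2 cells of neither series. It was at 66.1, 61.1, 69.5 and 36.2 CPM in the 4 WT libraries of the Odc series and at 36.7, 45.4 and 55.2 CPM in the 3 Odc-/- libraries. TH2 cells of the Dohh series had 52.9, 63.1 and 70.4 CPM in WT and 57.5, 52.9 and 31.6 CPM in Dohh-/- libraries. The ranges overlapped in both series. The log2 fold change was -0.35 ± 0.35 (SE) with Odc deletion, with a 95% interval from -1.06 to 0.36 and an adjusted p of 0.399, and -0.39 ± 0.33 with Dohh deletion, with an interval from -1.08 to 0.29 and an adjusted p of 0.346.

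Il5 changed differently in the Odc and Dohh series. In the Dohh series it was at 23.2, 23.8 and 19.1 CPM in WT TH2 cells and at 329.7, 202 and 291 CPM in Dohh-/- TH2 cells, a 12.4-fold rise (log2 fold change 3.64 ± 0.26 (SE), adjusted p = 4.73e-09). The lowest Dohh-/- library lay far above the highest WT library. TH2 cells of the Odc series had 39.4, 38.0, 42.6 and 74.3 CPM in WT and 22.4, 53.4 and 24.2 CPM in Odc-/- libraries, with overlapping ranges and a log2 fold change of -0.54 ± 0.36 (adjusted p = 0.202). Of the Odc-/- libraries, replicate 3 alone lay within the WT range, and without it the log2 fold change was -1.06 (adjusted p = 0.031).

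Il13 rose with Dohh deletion in every subset, and most of its transcript was in TH2 cells. In TH2 cells it was at 233, 251 and 183 CPM in WT and at 1975, 1346 and 1518 CPM in Dohh-/- libraries, with no overlap and a 7.25-fold rise (log2 fold change 2.86 ± 0.29 (SE), adjusted p = 4.43e-07). WT TH2 cells of the Odc series had 277, 320.1, 349 and 667 CPM and Odc-/- TH2 cells 675, 743 and 579.5 CPM. Replicate 4 of the WT libraries lay among the Odc-/- libraries and the other 3 lay below all of them. The log2 fold change was 0.72 ± 0.36 (SE) with an adjusted p of 0.0862, and without WT replicate 4 it was 1.08 (adjusted p = 0.0136).

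Outside TH2 cells the 3 cytokine transcripts were scarce, with 11 to 111 reads of Il13 in a WT library. In Dohh-/- TH17 cells Il13 was at 28.7, 14.0 and 15.1 CPM against 1.53, 1.56 and 1.27 CPM in WT, a 13.1-fold rise (adjusted p = 2.03e-07) to a level below the lowest WT TH2 library, at 183 CPM. In Dohh-/- Treg cells it was at 14.0, 7.57 and 17.6 CPM against 2.03, 2.07 and 1.28 CPM (7.30-fold, adjusted p = 2.31e-06), and in Dohh-/- TH1 cells at 22.5, 14.0 and 11.0 CPM against 7.45, 5.58 and 4.04 CPM (2.77-fold, adjusted p = 0.000953). All 3 of these subsets had separate ranges. In Odc-/- Treg cells Il13 was at 8.46, 6.02, 14.9 and 9.51 CPM against 4.13, 2.38, 2.88 and 2.91 CPM in WT, also without overlap (3.14-fold, adjusted p = 0.00442). In TH17 cells of the Odc series the ranges overlapped (9.04, 10.4, 23.5 and 15.5 CPM against 4.06, 3.98, 6.22 and 12.9 CPM), and the call (2.12-fold, adjusted p = 0.0367) was lost when any 1 of Odc-/- replicates 3 and 4 or WT replicates 1, 2 and 3 was left out (adjusted p = 0.0686 to 0.16).

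Il4 was at 0.867, 0.427, 0.871 and 0.740 CPM in WT TH1 cells of the Odc series and at 1.81, 1.06, 3.52 and 4.34 CPM in Odc-/- TH1 cells, from 20 reads in the WT libraries together. These ranges did not overlap, and the call (3.63-fold, adjusted p = 0.00958) was kept when each library was left out in turn. The rises of Il4 in Treg cells, 2.53-fold in the Odc series (adjusted p = 0.0397) and 2.82-fold in the Dohh series (adjusted p = 0.0258), were lost when any of several single libraries was left out. Il5 stayed at or below 1.20 CPM in all libraries of the other 3 subsets in both series. Its one call there, in Odc-/- Treg cells (0.529, 1.20, 0.518 and 0.652 CPM against 0.212, 0, 0.346 and 0.117 CPM, adjusted p = 0.0498), was lost in 7 of 8 fits that left out 1 library.

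**Figure D1:**
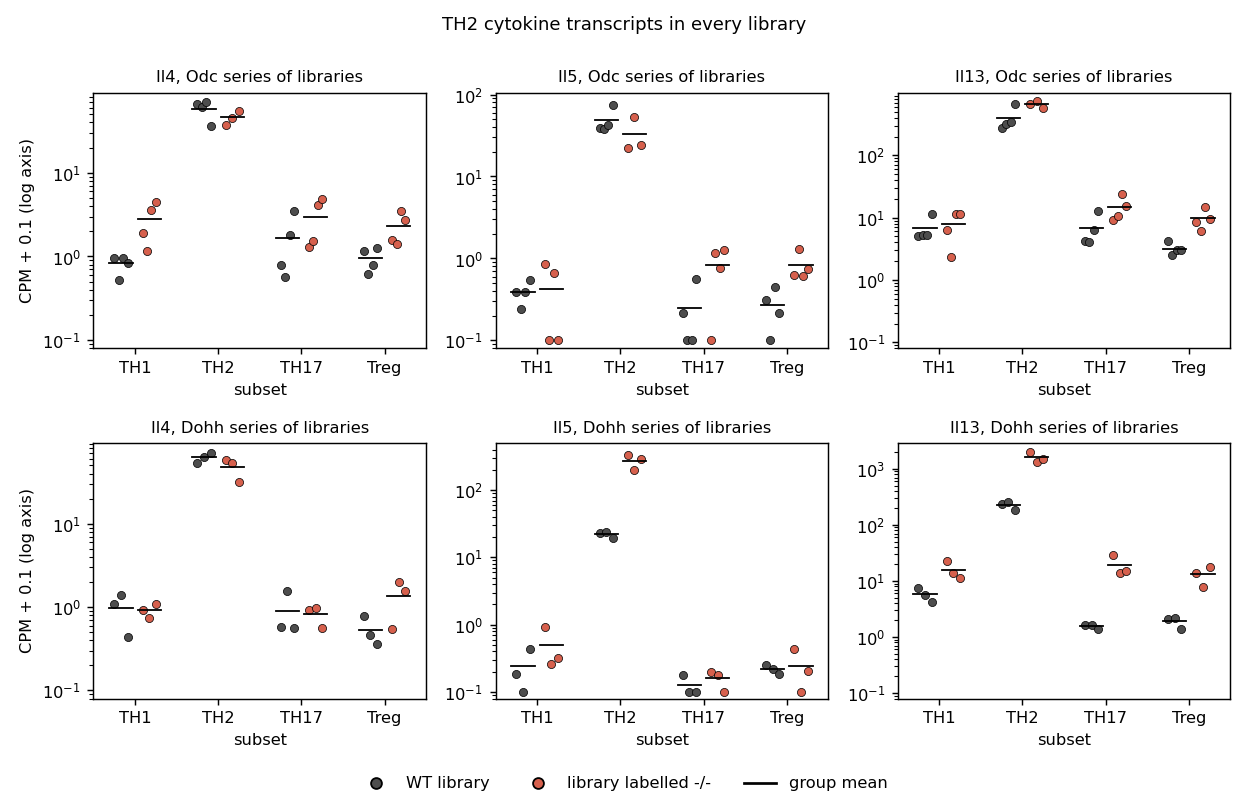
Il4, Il5 and Il13 in every library of both series, by subset, as CPM + 0.1 on a log axis. Dots are libraries and bars are group means. Il5 and Il13 of the 3 Dohh-/- TH2 libraries lie above all WT libraries, while Il4 overlaps.

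Gata3 fell in TH2 cells of both series, by less than 2-fold. It was at 269, 266, 259.8 and 236 CPM in WT and at 118, 147 and 158 CPM in Odc-/- TH2 cells (1.82-fold lower, adjusted p = 0.000603). In the Dohh series it was at 247, 219.9 and 228 CPM in WT and at 176, 159.7 and 133 CPM in Dohh-/- TH2 cells (1.48-fold lower, adjusted p = 0.0334). Neither pair of ranges overlapped. Over the alternative fits the fall in Dohh-/- TH2 cells had log2 fold changes from -0.70 to -0.46 and an adjusted p of up to 0.137. All Dohh-/- TH2 libraries had more Il5 and Il13 and less Gata3 than any WT TH2 library of the series.

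The change of Gata3 depended on the subset. In Treg cells of the Dohh series, which use GATA3 as well, it was at 46.2, 48.5 and 60.0 CPM in WT and at 11.6, 13.4 and 10.5 CPM in Dohh-/- libraries, a fall of 4.35-fold (log2 fold change -2.12 ± 0.22 (SE), adjusted p = 2.2e-07). In TH17 cells of that series it was at 12.6, 13.6 and 18.4 CPM in WT and at 24.4, 14.5 and 27.2 CPM in Dohh-/- libraries (1.48-fold higher, adjusted p = 0.0393), with overlapping ranges. Over the alternative fits the adjusted p of this rise reached 0.173. The change in TH2 cells was lower than that in TH17 cells by 1.13 ± 0.31 on the log2 scale (adjusted p = 0.0258) and higher than that in Treg cells by 1.55 ± 0.31 (adjusted p = 0.00199). The first of these was lost in 5 of 12 fits that left out 1 library (adjusted p = 0.0581 to 0.0824) and the second in none of 12. With Odc deletion Gata3 fell 1.56-fold in Treg cells (adjusted p = 0.00559), where the ranges overlapped, and had log2 fold changes of 0.35 ± 0.24 in TH1 cells and 0.01 ± 0.23 in TH17 cells that did not pass the test. There the change in TH2 cells was below that in TH1 cells by 1.22 ± 0.31 (adjusted p = 0.0367) and below that in TH17 cells by 0.88 ± 0.31 (adjusted p = 0.0412), and each was lost in 9 of 15 fits that left out 1 library (adjusted p = 0.0503 to 0.133).

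Pparg, a nuclear receptor for fatty acid ligands, rose with Dohh deletion in all 4 subsets and with Odc deletion in TH1 cells. TH2 cells of the Dohh series had 34.6, 32.5 and 26.7 CPM of it in WT and 81.6, 71.9 and 56.0 CPM in Dohh-/- libraries, without overlap (2.23-fold, adjusted p = 0.0155). The call was lost without Dohh-/- replicate 1 (adjusted p = 0.0618) and without WT replicate 3 (adjusted p = 0.065). Those of the Odc series had 24.9, 21.1, 26.2 and 25.5 CPM in WT and 22.9, 28.2 and 23.9 CPM in Odc-/- libraries, with a log2 fold change of 0.03 ± 0.25 (SE) and a 95% interval from -0.48 to 0.55. In TH1 cells it was at 0.497, 1.30 and 0.897 CPM in WT and at 10.3, 6.79 and 3.75 CPM in Dohh-/- libraries (7.82-fold, adjusted p = 5.8e-05). In the same subset of the Odc series WT cells had 1.01, 0.711, 0.435 and 1.92 CPM and Odc-/- cells 1.51, 1.32, 4.36 and 3.78 CPM, which overlapped (2.67-fold, adjusted p = 0.00148). The rise in TH17 cells of the Dohh series was 6.13-fold (adjusted p = 6.85e-05), without overlap. That in Treg cells was 2.44-fold (adjusted p = 0.0164) and was lost without Dohh-/- replicate 3 or WT replicate 1 or 2 (adjusted p = 0.0541 to 0.123).

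Bhlhe41 had the lowest level per kilobase of the 3 factors in WT TH2 cells of both series, and with Odc deletion it was called lower in TH2 and higher in Treg cells. In TH2 cells of the Odc series it was at 8.32, 5.20, 7.08 and 4.52 CPM in WT and at 0.928, 1.78 and 1.16 CPM in Odc-/- libraries, without overlap (4.82-fold lower, log2 fold change -2.27 ± 0.60 (SE), adjusted p = 0.00189). In Treg cells of that series it was at 0.318, 0.723, 1.15 and 0 CPM in WT and at 5.15, 2.89, 1.81 and 1.17 CPM in Odc-/- libraries, higher by 2.29 ± 0.65 on the log2 scale (adjusted p = 0.00228). The change in TH2 cells lay below that in Treg cells by 4.56 ± 0.88 (adjusted p = 0.000232) and below that in TH17 cells by 3.16 ± 0.90 (adjusted p = 0.0124), and both passed in all 15 fits that left out 1 library. The difference from TH1 cells did not pass the test (adjusted p = 0.052).

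Bhlhe41 in TH2 cells of the Dohh series was at 2.96, 2.11 and 4.26 CPM in WT and at 1.78, 0.815 and 0.954 CPM in Dohh-/- libraries. These ranges did not overlap, but the log2 fold change of -1.38 ± 1.01 (SE) did not pass the test (adjusted p = 0.273). In TH1 cells of this series it was at 0.0828, 0 and 0 CPM in WT, from 1 read in all, and at 0.102, 0.473 and 0.772 CPM in Dohh-/- libraries, separate ranges at which no change passed the test (adjusted p = 0.168). In TH17 and Treg cells of this series its level hung on single libraries. Dohh-/- TH17 cells had 0.406, 20.7 and 7.40 CPM against 1.13, 1.37 and 0.808 CPM in WT, and Dohh-/- Treg cells 0.110, 8.58 and 5.88 CPM against 0.602, 0 and 0.767 CPM. In both, replicate 1 was below the WT mean and the other 2 were above all WT libraries. The calls (adjusted p = 0.0147 in TH17 and 0.0151 in Treg cells) were lost without Dohh-/- replicate 2, with log2 fold changes of 1.74 (adjusted p = 0.163) and 2.52 (adjusted p = 0.0773), and also without WT replicate 3 of the TH17 cells or WT replicate 2 of the Treg cells.

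**Figure D2:**
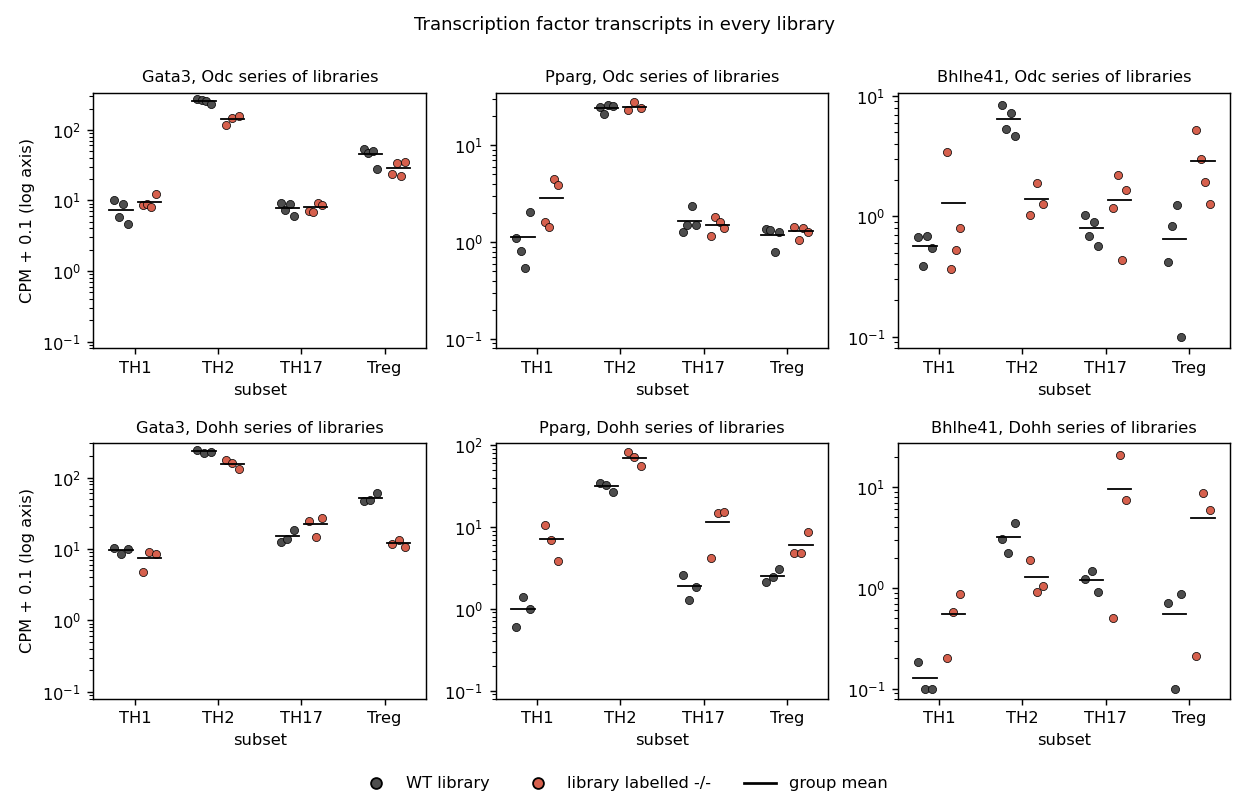
Gata3, Pparg and Bhlhe41 in every library of both series, by subset, as CPM + 0.1 on a log axis. Dots are libraries and bars are group means. Gata3 lies lower in the deleted TH2 cells of both series and in Dohh-/- Treg cells, and the 3 Bhlhe41 values of Dohh-/- TH17 cells spread from 0.406 to 20.7 CPM.

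Il4ra, the receptor chain through which IL-4 and IL-13 signal, was lower in the deleted cells in all 8 comparisons, with adjusted p from 6.21e-09 to 0.0201. In TH2 cells of the Odc series it was at 1444, 1366, 1301 and 1225 CPM in WT and at 501, 644 and 576 CPM in Odc-/- libraries (2.32-fold lower, adjusted p = 5.56e-06). In those of the Dohh series it was at 1496, 1249 and 1114 CPM in WT and at 571, 539 and 454 CPM in Dohh-/- libraries (2.47-fold lower, adjusted p = 1.05e-06). Neither pair of ranges overlapped. The other falls past 2-fold were in TH1 cells (2.16-fold, adjusted p = 6.22e-06) and TH17 cells (3.82-fold, adjusted p = 6.21e-09) of the Dohh series. The falls of 1.37-fold to 1.98-fold in TH1, TH17 and Treg cells of the Odc series and of 1.79-fold in Treg cells of the Dohh series stayed below the fold threshold in the main fit. In TH17 cells of the Odc series the fall was called in 8 of 14 alternative fits, with log2 fold changes from -1.08 to -0.93. In TH1 cells of that series it was called in 1 of 14. In Treg cells of the Odc series the ranges overlapped, at 304 to 385 CPM in WT and 204 to 359 CPM in Odc-/- libraries. In that series the change in TH2 cells was below that in Treg cells by 0.76 ± 0.24 on the log2 scale (adjusted p = 0.0198), which was lost without replicate 2 of the Odc-/- TH2 or replicate 1 of the Odc-/- Treg libraries (adjusted p = 0.0683 and 0.0661).

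Il1rl1 rose in all 8 comparisons and was the one transcript of the 8 called in each. In TH2 cells of the Odc series it was at 1.96, 2.27, 2.00 and 2.19 CPM in WT and at 5.57, 10.4 and 6.33 CPM in Odc-/- libraries (3.53-fold, adjusted p = 0.0126). In those of the Dohh series it was at 0.823, 0.952 and 0.673 CPM in WT and at 4.41, 24.6 and 31.6 CPM in Dohh-/- libraries (24.3-fold, adjusted p = 2.81e-05). The ranges did not overlap in either series, although Dohh-/- replicate 1 was far below the other 2. The call in the Odc series was lost without Odc-/- replicate 3 (log2 fold change 1.49, adjusted p = 0.0689).

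Il1rl1 rose in the other 3 subsets as well, and no difference between its change in TH2 cells and that in another subset passed the unpaired test in either series (adjusted p = 0.101 to 0.954). With libraries of 1 number paired within a genotype, its change in TH2 cells lay below that in Treg cells of the Odc series (log2 difference -2.24, adjusted p = 0.0338). In TH17 cells of the Dohh series Il1rl1 was at 0.646, 0.293 and 0.115 CPM in WT, from 12 reads in all, and at 31.0, 56.2 and 101 CPM in Dohh-/- libraries (log2 fold change 7.32 ± 0.91 (SE), adjusted p = 4.21e-07). WT replicate 1 held 8 of the 12 reads, and over the alternative fits this log2 fold change ran from 6.82 to 8.11. Its rise was 55.6-fold in Treg cells of that series (adjusted p = 1.46e-06) and 21.4-fold in TH1 cells (adjusted p = 1.07e-05). In the Odc series it was 13.2-fold in Treg cells (21.0, 18.6, 29.6 and 18.6 CPM against 2.65, 0.930, 1.73 and 1.28 CPM, adjusted p = 3.9e-06) and 5.81-fold in TH17 cells (adjusted p = 0.00031), both without overlap. In TH1 cells of the Odc series Odc-/- replicate 1, at 11.0 CPM, lay within the WT range of 2.61 to 17.8 CPM, while the other 3 were at 56.3 to 72.9 CPM (6.27-fold, adjusted p = 5.97e-05). WT replicate 4 held the highest WT value there. Over 14 alternative fits, which all called this rise, its log2 fold change ran from 2.33 to 3.33, against 2.65 in the main fit. The deleted cells had their lowest mean of Il1rl1 in TH2 cells in both series (7.45 ± 2.63 CPM, SD, n = 3, in Odc-/- and 20.2 ± 14.1 CPM, SD, n = 3, in Dohh-/- cells). The gene has a membrane form and a shorter soluble form, which these counts per gene sum.

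**Figure D3:**
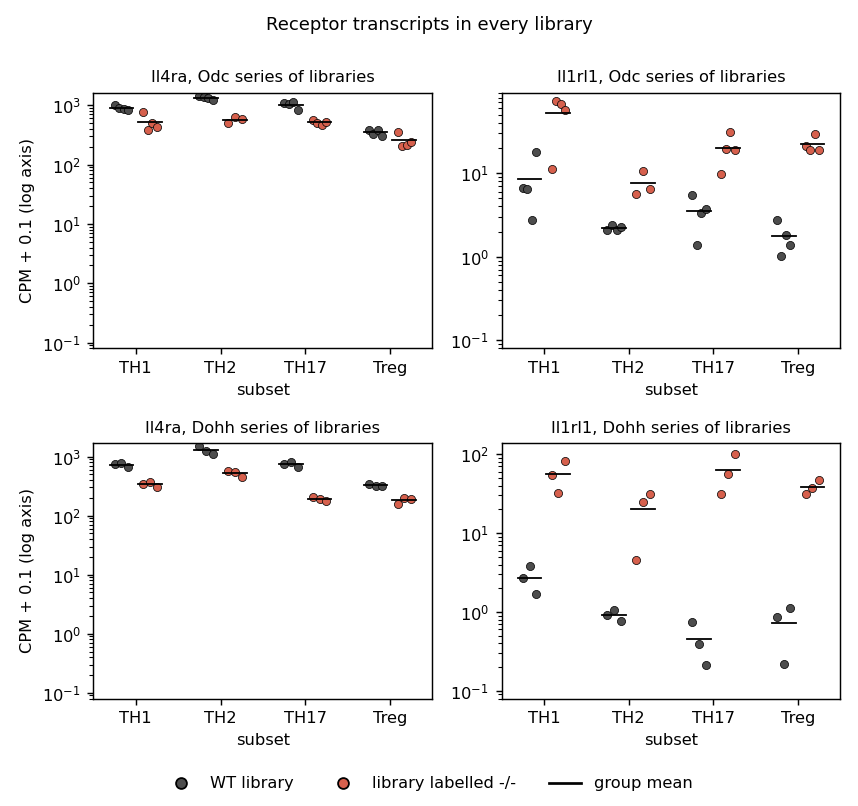
Il4ra and Il1rl1 in every library of both series, by subset, as CPM + 0.1 on a log axis. Dots are libraries and bars are group means. Il4ra is lower and Il1rl1 higher in the deleted cells, with overlap of single libraries in Treg cells for Il4ra and in TH1 cells for Il1rl1, both in the Odc series.

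The calls of the 8 transcripts with deletion stood beside wide changes among all genes. With Odc deletion 3 were called in TH1 cells (21.4% of all genes), 3 in TH2 cells (25.1%), 2 in TH17 cells (15.6%) and 5 in Treg cells (24%). With Dohh deletion 4 were called in TH1 cells (29.1%), 5 in TH2 cells (25.9%), 5 in TH17 cells (31.4%) and 6 in Treg cells (32.7%). Single libraries moved 3 of these counts by over 1.5-fold. The count in Odc-/- TH17 cells was 1 without Odc-/- replicate 3 or WT replicate 1, 2 or 3, 4 without Odc-/- replicate 1 and 5 without WT replicate 4. That in Odc-/- Treg cells was 3 without Odc-/- replicate 3 or 4 or WT replicate 1 or 2, and 4 without any of the other 4 libraries. That in Dohh-/- Treg cells was 3 without WT replicate 2. Ranges that did not overlap were seen for 2, 4, 2 and 5 of the 8 genes in TH1, TH2, TH17 and Treg cells of the Odc series, beside 43.3%, 61.1%, 41.1% and 45.8% of all genes. With Dohh deletion they were seen for 5, 7, 4 and 5 genes, beside 50.7%, 62.4%, 61.9% and 66.6%. Of 32 tests in each series, 11 gave a rise and 2 a fall with Odc deletion, and 16 a rise and 4 a fall with Dohh deletion. Among all genes, 10.2%, 11.5%, 8.35% and 13.9% rose and 11.3%, 13.6%, 7.21% and 10.1% fell in TH1, TH2, TH17 and Treg cells with Odc deletion. The same shares were 14.8%, 14.3%, 17.3% and 17.5% for rises and 14.2%, 11.6%, 14.1% and 15.2% for falls with Dohh deletion. The median log2 fold change of the 8 was 0.80, -0.45, 0.87 and 1.49 in TH1, TH2, TH17 and Treg cells of the Odc series and 1.56, 0.38, 1.75 and 1.39 in the Dohh series, while the median of all genes tested lay at most 0.07 from 0. The TH2 median was the lowest of the 4 in both series.

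**Figure D4:**
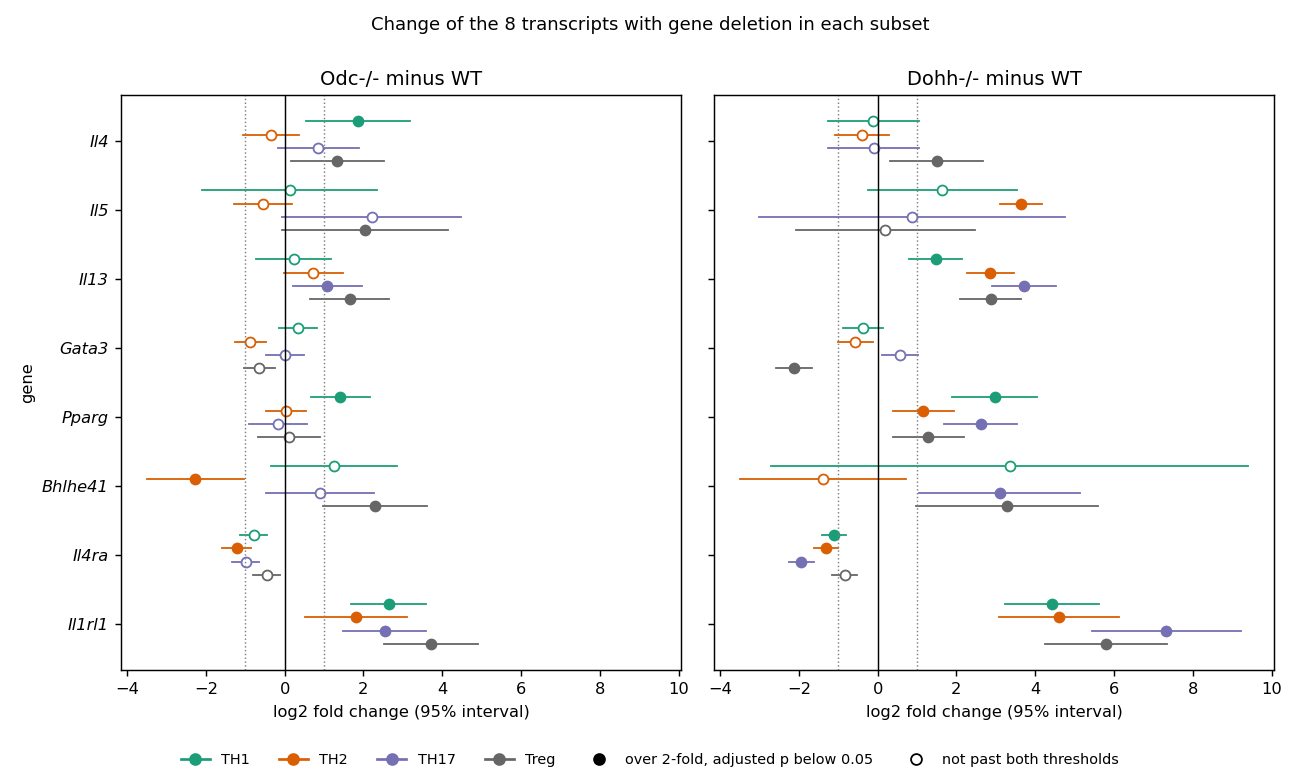
Log2 fold change of each of the 8 transcripts with Odc deletion (left) and Dohh deletion (right) in the 4 subsets, with 95% intervals. Filled dots passed both thresholds, and dotted lines mark 2-fold. Il4ra lies left of 0 and Il1rl1 right of 0 in all 8 comparisons.

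A test of the difference between the deletions, in 1 fit of both series, called 3 of the 8 genes in TH2 cells (15.7% of all genes), 4 in TH17 cells (21.4%), 1 in Treg cells (26.2%) and 0 in TH1 cells (18.5%), where 5 had an unadjusted p below 0.05 and DESeq2 called 1. In TH2 cells the change with Odc deletion was below that with Dohh deletion by 4.16 ± 0.45 (SE) on the log2 scale for Il5 (adjusted p = 4.38e-08), by 2.11 ± 0.50 for Il13 (adjusted p = 0.00343) and by 2.77 ± 1.01 for Il1rl1 (adjusted p = 0.0483). The differences of Il5 and Il13 passed in all 13 fits that left out 1 library, and that of Il1rl1 was lost in 11 of them (adjusted p = 0.0634 to 0.126). For Il4 the difference was 0.06 ± 0.50, with a 95% interval from -0.95 to 1.07, and for Il4ra 0.10 ± 0.24, with an interval from -0.38 to 0.58. In TH17 cells Il13 (-2.66 ± 0.66, adjusted p = 0.00247) and Il1rl1 (-4.83 ± 1.13, adjusted p = 0.00038) rose more with Dohh deletion, and Il4ra fell further with it (0.89 ± 0.23, adjusted p = 0.00446). Pparg differed as well (-2.84 ± 0.58, adjusted p = 0.000332). It rose with Dohh deletion there, while its log2 fold change with Odc deletion was -0.16 ± 0.36 (adjusted p = 0.723). In Treg cells Gata3 fell further with Dohh deletion (1.43 ± 0.31, adjusted p = 0.000361). Each deletion has its own series, so that a difference between deletions cannot be told apart from a difference between series. The part of the shifts in cell markers in these differences was not tested.

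Tests of the change in TH2 cells against that in another subset called few of the 8 genes. They were 1 against TH1 cells (1.66% of all genes), 2 against TH17 cells (20.8%) and 3 against Treg cells (26.7%) in the Odc series, namely Gata3, Bhlhe41, Il4ra and Il5, whose change in TH2 cells was below that in Treg cells by 2.59 ± 1.09 (SE) on the log2 scale (adjusted p = 0.0463, lost in 11 of 15 fits that left out 1 library, with adjusted p up to 0.132). In the Dohh series 1 was called against TH17 cells (7.45%) and 2 against Treg cells (9.79%), and none against TH1 cells (2.97%), where 3 had an unadjusted p below 0.05 and DESeq2 also called 0. The libraries of 1 number were also paired within each genotype for the differences from TH17 and Treg cells. Of the Odc series, Il4 then passed against TH17 cells (log2 difference -1.32, adjusted p = 0.0439) and Treg cells (-1.83, adjusted p = 0.0115), Il5 against TH17 cells (-3.00, adjusted p = 0.0162) and Il1rl1 against Treg cells, as given above. The difference of Bhlhe41 against Treg cells in the Dohh series lost its call (-3.80, adjusted p = 0.0891). The rise of Il5 in Dohh-/- TH2 cells was not shown to differ from its change in TH1, TH17 or Treg cells (adjusted p = 0.361, 0.544 and 0.0803), where at most 8 reads were counted in a library. Because Il5 passed the low-count filter through its TH2 libraries, no conclusion is drawn from its differences between subsets in either series.

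Other genes of the TH2 pathway were listed by role and counted in TH2 cells. Of all genes tested there, 11.5% were called higher and 13.6% lower with Odc deletion, and 14.3% higher and 11.6% lower with Dohh deletion. Of the listed genes of IL-4 and IL-13 receptor signalling, 3 of 10 tested were called lower in Odc-/- TH2 cells and 2 of 9 in Dohh-/- TH2 cells, with none higher, and median log2 fold changes of -0.70 and -0.52. With a list this short these counts are a description only. Jak3, the kinase that docks on the shared γ chain of this receptor, was called lower in 7 of the 8 comparisons (from 928 to 378 CPM in TH2 cells of the Odc series, adjusted p = 4.37e-05, and from 1138 to 435 CPM in those of the Dohh series, adjusted p = 0.000874). Socs3, a feedback inhibitor of cytokine receptors, fell in both kinds of TH2 cells (log2 fold change -2.15 ± 0.27 and -1.74 ± 0.26 (SE), adjusted p = 1.56e-06 and 2.71e-05).

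Of 14 listed factors that favour TH2 cells, 2 were called lower in Odc-/- and 4 in Dohh-/- TH2 cells, and none higher, with median log2 fold changes of -0.54 and -0.49. Maf, a factor of Il4 transcription, fell from 169 to 40.6 CPM in Odc-/- TH2 cells (adjusted p = 7.55e-05), while its log2 fold change in Dohh-/- TH2 cells was -0.56 ± 0.33 (SE, adjusted p = 0.178). Stat5b, a transducer of IL-2, was called lower in 6 of the 8 comparisons and in both kinds of TH2 cells (log2 fold change -1.14 ± 0.14 and -1.71 ± 0.20). Irf4, which T cells induce on activation, fell in Dohh-/- TH2 cells from 748 to 207 CPM (adjusted p = 1.13e-06).

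Of the listed factors that oppose TH2 cells, 5 of 7 tested were called higher in Odc-/- TH2 cells and 3 of 6 in Dohh-/- TH2 cells, where 1 was lower (median log2 fold changes 1.53 and 1.76). Tbx21, which encodes the TH1 factor T-bet, rose from 14.6 to 58.1 CPM in Odc-/- TH2 cells (adjusted p = 3.47e-05) and from 9.32 to 76.3 CPM in Dohh-/- TH2 cells (adjusted p = 1.01e-06). Ifng, the TH1 cytokine that anti-IFN-γ neutralizes in these cultures, was at 3.60 to 12.7 CPM in WT and 65.0 to 106 CPM in Odc-/- TH2 libraries, and at 2.54 to 3.70 CPM in WT and 379 to 1500 CPM in Dohh-/- TH2 libraries. Eomes, a factor related to T-bet, was called higher in all 8 comparisons (log2 fold change 1.97 to 4.44). Zbtb32, a repressor also known as ROG, rose in both kinds of TH2 cells as well (log2 fold change 1.36 ± 0.31 and 3.41 ± 0.24 (SE)). Bcl6, the factor of follicular helper cells, moved in opposite directions in TH2 cells, from 3.41 to 11.5 CPM with Odc deletion (adjusted p = 2.86e-05) and by -1.51 ± 0.54 (SE) on the log2 scale with Dohh deletion (adjusted p = 0.026).

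Among other cytokines of TH2 cells, 4 of 8 tested were called higher and 1 lower in Odc-/- TH2 cells, and 4 of 7 were higher in Dohh-/- TH2 cells, with medians of 0.98 and 2.84. Csf2, which encodes GM-CSF, rose from 5.30 to 35.9 CPM with Odc deletion (adjusted p = 4.68e-06) and from 1.44 to 39.4 CPM with Dohh deletion (adjusted p = 6.66e-06), and so passed the test in Odc-/- TH2 cells as well, where Il5 did not. Il10 rose in Dohh-/- TH2 cells from 42.6 to 306 CPM (adjusted p = 3.64e-07), and its log2 fold change in Odc-/- TH2 cells was 0.09 ± 0.28 (SE, adjusted p = 0.793). Il6 was called higher in all 8 comparisons. Of the other TH2 surface and prostaglandin genes, 1 of 8 was higher and 1 lower in Odc-/- TH2 cells, and 1 of 8 was lower in Dohh-/- TH2 cells (medians -0.47 and -0.65). Ccr8, a chemokine receptor of TH2 and Treg cells, fell from 138 to 53.1 CPM in Odc-/- TH2 cells (adjusted p = 7.93e-05).

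The rises of Il5 and Il13 in Dohh-/- TH2 cells were not seen in the listed neighbours of the cytokine locus. Of Kif3a, Rad50, Irf1 and Septin8, none was called in TH2 cells of either series (median log2 fold changes -0.43 and -0.31). Rad50, which lies between Il13 and Il5, was at 99.3 CPM in WT and 83.6 CPM in Dohh-/- TH2 cells (log2 fold change -0.25 ± 0.19 (SE), adjusted p = 0.306), and at 198 CPM in WT and 115 CPM in Odc-/- TH2 cells (-0.78 ± 0.09, adjusted p = 3.85e-07), a fall of less than 2-fold.

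Basophils and mast cells also make Il4, Il13 and Il1rl1, and transcripts of their markers rose with both deletions. The cultures began from naive CD4+ T cells isolated by negative selection, a step in which other cell types are removed. Over 13 listed markers, the summed level was 6.67 to 51.8 CPM in WT and 31.0 to 371 CPM in Odc-/- libraries, and 5.27 to 26.1 CPM in WT and 73.4 to 1437 CPM in Dohh-/- libraries. In TH2 cells 9 of 11 tested markers were called higher with Odc deletion and 11 of 13 with Dohh deletion, with median log2 fold changes of 3.55 and 6.59. The sums there were 6.67 to 12.1 CPM in WT and 53.6 to 94.8 CPM in Odc-/- libraries, and 5.27 to 7.19 CPM in WT and 82.5 to 540 CPM in Dohh-/- libraries. Fcer1a, which encodes the α chain of the IgE receptor, was at 0.127 CPM in WT and 17.2 CPM in Dohh-/- TH2 cells (adjusted p = 0.000111), and Cpa3 at 0.210 and 61.1 CPM (adjusted p = 2.41e-05). Tpsab1, a mast cell tryptase, was at 0 in all TH2 libraries of both series, WT and deleted.

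Library by library, the members moved differently with these markers. In Dohh-/- TH2 cells replicate 1 had the lowest marker sum, at 82.5 CPM against 502 and 539.5 CPM in replicates 2 and 3, and the highest Il5 (329.7 CPM) and Il13 (1975 CPM) of the 3. The same library had the lowest Il1rl1, at 4.41 CPM against 24.6 and 31.6 CPM. In Dohh-/- TH17 cells the sums were 388, 944 and 1437 CPM in replicates 1, 2 and 3, and Il1rl1 had the same order, whereas Il13 was highest in replicate 1, which had the lowest sum. Il1rl1 also had the order of the sums in Dohh-/- Treg cells (30.8, 36.8 and 47.4 CPM at 211, 375 and 417 CPM). Il13 of these Treg libraries was at 14.0, 7.57 and 17.6 CPM, highest at the highest sum and lowest at the middle sum. Il1rl1 did not have the order of the sums in Dohh-/- TH1 cells (55.0, 32.5 and 81.4 CPM at 73.4, 370 and 446 CPM), where Il13 ran opposite to the sums (22.5, 14.0 and 11.0 CPM). Bhlhe41 in Dohh-/- TH17 and Treg cells was lowest in replicate 1, the library with the lowest sum in each (388 and 211 CPM). In Dohh-/- TH1 cells Bhlhe41 had the order of the sums, but in Dohh-/- TH2 cells it was highest at the lowest sum (replicate 1, 1.78 CPM at 82.5 CPM). In the Odc series it was highest in the library with the lowest sum in Odc-/- Treg cells (replicate 1, 5.15 CPM at a sum of 82.7 CPM) and Odc-/- TH1 cells (replicate 1, 3.32 CPM at 31.0 CPM), and lowest in the one with the highest sum in Odc-/- TH17 cells (replicate 3, 0.333 CPM at 371 CPM). In Odc-/- TH2 cells it was highest at the highest sum (replicate 3, 1.78 CPM at 94.8 CPM). In Odc-/- TH17 and Treg cells replicate 3 had the highest sum (371 and 234 CPM), the highest Il13 and the highest Il1rl1. In Odc-/- TH1 cells replicate 3 had the highest sum (223 CPM) and the highest Il13 (11.4 CPM). Replicate 1 of those cells had the lowest sum (31.0 CPM) and the lowest Il1rl1 (11.0 CPM). Their replicate 2, at a sum of 65.3 CPM, had the highest Il1rl1 (72.9 CPM) and the lowest Il13 (2.25 CPM). In Odc-/- TH2 cells replicate 3 likewise had the highest sum (94.8 CPM), and it had the highest Il13 (743 CPM), Il5 (53.4 CPM) and Il1rl1 (10.4 CPM). Il13 kept the order of the sums over all Odc-/- TH2 libraries (579.5, 675 and 743 CPM at sums of 53.6, 70.6 and 94.8 CPM). Il1rl1 kept it over the Dohh-/- TH2 libraries. Il5 was lower in Odc-/- replicate 2 (22.4 CPM at a sum of 70.6 CPM) than in replicate 4 (24.2 CPM at 53.6 CPM), and so was Il1rl1 (5.57 and 6.33 CPM). Il5 and Il13 of Dohh-/- TH2 cells were highest at the lowest sum, although replicate 3 had a higher sum, and more of both, than replicate 2. The summed level of 7 myeloid markers in Dohh-/- libraries was 20.7 to 728 CPM in TH2 cells, 5.21 to 224 CPM in TH1 cells, 568 to 11456 CPM in TH17 cells and 339.9 to 4735 CPM in Treg cells, against at most 39.6 CPM in WT libraries of that series. In the Odc series it was 97.3 to 757 CPM in Odc-/- against 21.0 to 45.5 CPM in WT Treg cells. It overlapped between genotypes in TH17 cells (46.5 to 582 CPM in Odc-/- against 20.5 to 49.7 CPM in WT libraries) and in TH1 and TH2 cells. One of the 7, Itgam, was at 0 in every library of the Dohh series, WT libraries included, and was counted in each group of the Odc series. In TH2 cells 5 of 6 tested myeloid markers were called higher with Dohh deletion, and with Odc deletion none was higher and 1 was lower. Markers of group 2 innate lymphoid cells other than the 8 genes gave 2 higher and 2 lower of 5 in Odc-/- TH2 cells and 3 higher of 5 in Dohh-/- TH2 cells. Those of CD8+ T and natural killer cells gave 1 higher of 5, and 2 higher and 1 lower of 4, and those of B cells 5 higher of 6, and 1 lower of 5. The summed level of the CD8+ T and natural killer cell markers overlapped between genotypes in TH2 cells of the Odc series and was higher without overlap in the other 7 comparisons. It was 103 to 135 CPM against 49.2 to 89.6 CPM in TH1, 129 to 179 CPM against 30.1 to 60.6 CPM in TH17 and 324 to 509 CPM against 22.8 to 55.9 CPM in Treg cells with Odc deletion. With Dohh deletion it was 222 to 418 CPM against 32.8 to 38.8 CPM in TH1, 50.9 to 83.5 CPM against 22.8 to 27.4 CPM in TH2, 327 to 345 CPM against 28.8 to 35.0 CPM in TH17 and 484 to 656 CPM against 24.5 to 36.5 CPM in Treg cells. In Odc-/- libraries the summed level of 6 B cell markers was 103 to 358 CPM against 32.7 to 67.8 CPM in TH1 cells. It was 302 to 507 CPM against 47.1 to 109 CPM in TH2 and 22.1 to 171 CPM against 6.10 to 12.1 CPM in Treg cells. With Dohh deletion it was 11.9 to 25.9 CPM against 8.63 to 11.1 CPM in Treg cells. It was lower in Dohh-/- TH1 cells, at 6.44 to 14.0 CPM against 16.6 to 23.2 CPM, and overlapped in the other comparisons. Of 9 genes of T cell identity, 3 were called lower in each kind of deleted TH2 cells. The part of these cell types in the changes of the 8 genes was not tested.

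**Figure D5:**
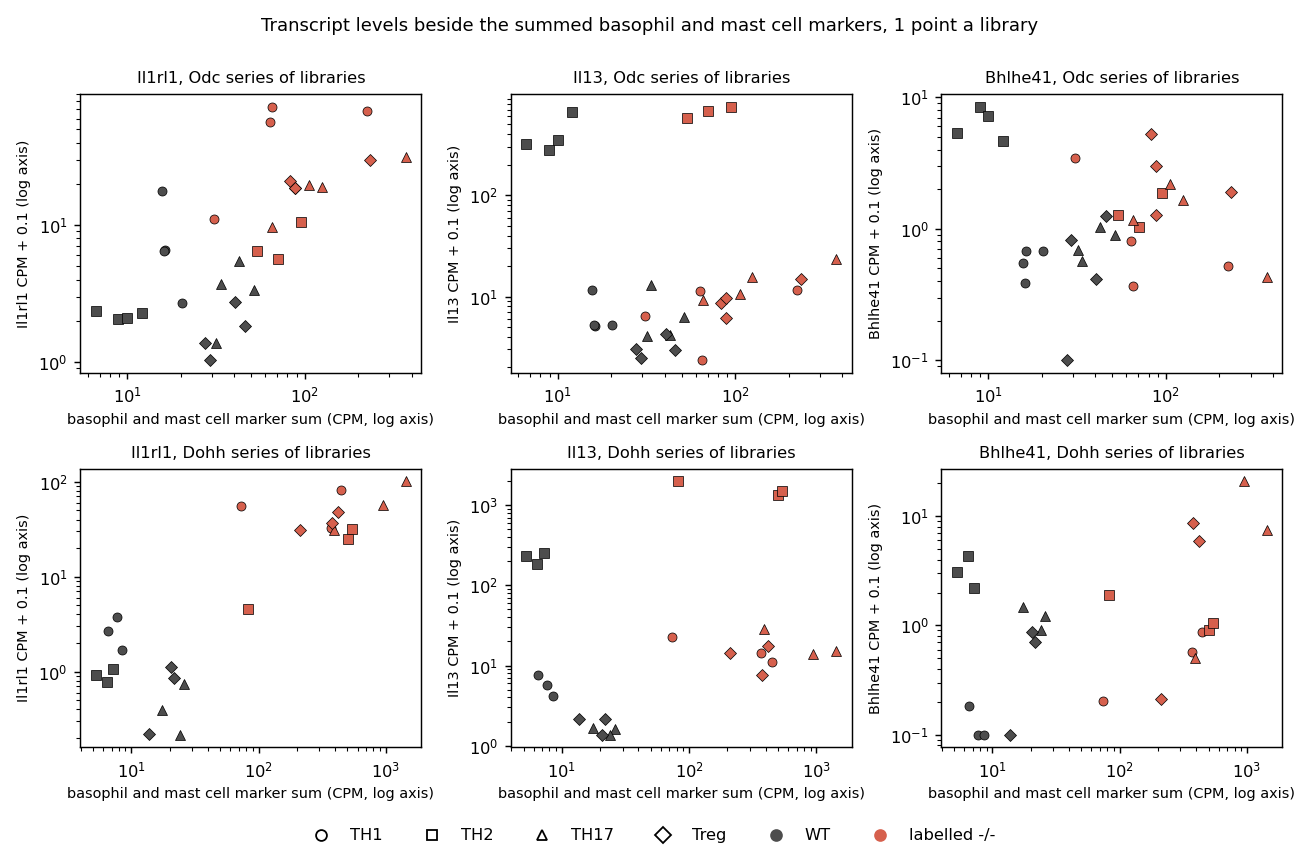
Level of Il1rl1, Il13 and Bhlhe41 (CPM + 0.1) against the summed level of 13 basophil and mast cell markers (CPM), 1 point a library, both axes logarithmic, with shapes for subsets and colours for genotypes. The Dohh-/- TH2 library with a sum of 82.5 CPM has the highest Il13 and the lowest Il1rl1 of its group.

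The genes whose level ran most like each of the 8 over libraries were ranked by the smaller of the Pearson correlations of log2 CPM in the Odc series (31 libraries) and the Dohh series (24 libraries), among 12924 genes. These correlations describe libraries that share subsets and genotypes. Il13 and Il5 were among each other's nearest 3 (r = 0.956 and 0.930), as was Il5 for Il4 (0.935 and 0.915), and Pth, the gene of parathyroid hormone, was among the nearest 3 of all 3 cytokine genes (0.929 to 0.963). Il13 was the nearest gene to Pparg (0.947 and 0.900). Gata3 ran most like Sema4b (0.879 and 0.906), Il4ra most like Armcx6 (0.928 and 0.932) and Il1rl1 most like Ccdc102a (0.921 and 0.920), followed by Icam1 and Spry4. Bhlhe41 had no close match, with Hhex nearest (0.754 and 0.706).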

How the data were processed

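Raw read counts per gene were deposited by the authors in 1 table for each deletion. Libraries were made with a stranded TruSeq mRNA kit, and the submitters' processing notes name STAR, featureCounts, deepTools and DESeq2, and mouse build mm10. Their versions, the annotation release and the strand setting are not given in the sources used here. The TH2 library of Odc-/- replicate 1 was not analysed here. Columns were matched to samples by title, and Ensembl identifiers to symbols with GENCODE vM21 (47224 of 47937 identifiers matched).

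The 8 genes, the other gene lists and the tests were chosen with earlier results of these data known. Each count table was fitted on its own over all groups (edgeR 4.0.16 in R 4.3.3, TMM library sizes, filterByExpr, robust quasi-likelihood test), which left 13839 genes of the Odc and 13897 of the Dohh table. Both tables were fitted together (14850 genes) to compare the deletions. Adjusted p-values are Benjamini-Hochberg values over all genes tested. A gene was called at a fold change above 2 and an adjusted p below 0.05, and a difference of changes at an adjusted p below 0.05. SE values are Wald standard errors. All 8 genes are described. Of each other list at most 4 genes were eligible to be named, those called in the most of 8 comparisons, so that these show only their own values. Some genes named for an overlap or for a lack of reads, such as Cd3e and Tpsab1, were outside this rule. Trdc was added after its values were seen. Tests were also run on simulated counts with independent libraries and changes in deleted TH2 cells only. These settings differ from the data, so that no conclusion is drawn from that run. Tables and figures were made with Python 3.11.15, pandas 2.3.3, numpy 2.4.6 and matplotlib 3.10.9.

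Alternatives were DESeq2 1.42.0, relative log expression (RLE) size factors, no low-count filter, a test against the 2-fold threshold (glmTreat), a fit of only the 2 groups compared, the replicate number as a block (shared by genotypes or within genotype) and leaving out each library. Leaving out the 4 WT libraries of number 4 of the Odc table was added after seeing the data. Same-numbered libraries deviated together between subsets of 1 genotype in the WT cells of both tables (correlations of 0.206 to 0.515 and 0.112 to 0.313) and between TH2 and TH17 and between TH2 and Treg cells of the deleted cells, where every correlation was over 0.1. Between genotypes, and between deleted TH2 and TH1 cells (0.0339 to 0.437 in the Odc and -0.136 to 0.157 in the Dohh table), at least 1 correlation was not over 0.1, and these were not treated as paired.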

Additional observations from a re-analysis of the deposited data

Results flagged for a closer look

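Of 56 groups of at least 4 libraries tested for a library far from the rest, 3 had one. Chance gives about 1 in 20 (5%), so that this count is near the number from chance alone. Il5 was at 74.3 CPM in WT replicate 4 of the TH2 cells of the Odc series, against 38.0 to 42.6 CPM in the other 3. Il13 was at 11.4 CPM in WT replicate 4 of the TH1 cells, against 5.06 to 5.12 CPM. Bhlhe41 was at 3.32 CPM in Odc-/- replicate 1 of the TH1 cells, against 0.265 to 0.700 CPM. WT replicate 4 accounts for 2 of the 3, from which no conclusion about that replicate is drawn.

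The change with Odc deletion differed from that with Dohh deletion for Il5 (-4.16 on the log2 scale), Il13 (-2.11) and Il1rl1 (-2.77) in TH2 cells. The call of Il1rl1 was lost in 11 of 13 fits that left out 1 library. In TH17 cells the change with Odc deletion differed for Il13 (-2.66), Pparg (-2.84), Il4ra (0.89) and Il1rl1 (-4.83), and in Treg cells for Gata3 (1.43).

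In the Dohh series the change of Gata3 in TH2 cells differed from that in TH17 cells (-1.13) and in Treg cells (1.55). The call against TH17 cells was lost in 5 of 12 fits that left out 1 library. The change of Bhlhe41 in TH2 cells differed from that in Treg cells (-4.67, adjusted p = 0.0494 in edgeR's quasi-likelihood test). This call was lost in 11 of 12 fits that left out 1 library, with adjusted p up to 0.135.

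In the Odc series the change of Gata3 in TH2 cells differed from that in TH1 cells (-1.22) and in TH17 cells (-0.88). Each of these calls was lost in 9 of 15 fits that left out 1 library. The change of Bhlhe41 in TH2 cells differed from that in TH17 cells (-3.16) and Treg cells (-4.56). The change of Il4ra differed from that in Treg cells (-0.76), a call lost in 2 of 15 such fits. Il5 was also called against Treg cells (-2.59), which was lost in 11 of 15. Because Il5 passed the low-count filter through its TH2 libraries, no conclusion is drawn from its difference.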

How the results depend on the processing

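Of 3529 values of the 8 genes under the alternatives, 3302 kept their side of the threshold, 146 lost a call and 81 gained one. Of the uncalled values 72 changed sign, and of the called values 0. The causes of the moves below were not tested. A count of 0 allowed up to 0.239 to 0.508 CPM, depending on the library, which limits Il5, Il4 and Bhlhe41 outside TH2 cells.

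The counts below are of the 8 genes called. DESeq2 called 4 (main count 2) in TH17 cells of the Odc series. For the change in TH2 cells against another subset it called 2 (1) against TH1 and 5 (3) against Treg cells in the Odc series, and 4 (1) against TH17 and 4 (2) against Treg cells in the Dohh series, and for the difference between the deletions 1 (0) in TH1 and 2 (1) in Treg cells. RLE size factors gave 1 (2) for TH2 against Treg changes in the Dohh series. The glmTreat test called 1, 0, 1 and 1 (3, 3, 2 and 5) in TH1, TH2, TH17 and Treg cells of the Odc series and 2, 3 and 3 (4, 5 and 6) in TH1, TH2 and Treg cells of the Dohh series. Without a low-count filter 3 (5) were called in Odc-/- Treg cells, 1 (2) and 0 (1) for TH2 against TH17 and TH1 changes in the Odc series and 1 (2) for TH2 against Treg changes in the Dohh series. With only the 2 groups compared, 3 (5) were called in Odc-/- Treg cells. Without the 4 WT libraries of number 4, chosen after seeing the data, 5 (2) were called in Odc-/- TH17 cells, 4 (2) for TH2 against TH17 and 3 (1) for TH2 against TH1 changes.

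With the replicate block, 2 of 240 values of the 8 genes lost their call and 8 gained one, and none of the 64 changes with deletion did either. The block gave 3 (1) for TH2 against TH1 changes in the Odc series, 1 (0), 2 (1) and 1 (2) against TH1, TH17 and Treg changes in the Dohh series and 1 (0) for the difference between the deletions in TH1 cells. Both blocks gained the TH2 against TH1 differences of Il4 and Bhlhe41 in the Odc series (adjusted p = 0.0351 and 0.042 with the shared block) and of Il13 in the Dohh series (0.0423), and the shared block alone that of Il4ra against TH17 cells in the Dohh series (0.0485). A block within genotype gave 4 (1), 4 (2) and 5 (3) against TH1, TH17 and Treg changes in the Odc series and 1 (0) and 1 (2) against TH1 and Treg changes in the Dohh series.

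Leaving out 1 library gave 3 to 4, 3 to 4, 1 to 5 and 3 to 4 called in TH1, TH2, TH17 and Treg cells of the Odc series, and 4 to 5, 4 to 5, 4 to 5 and 3 to 6 in those of the Dohh series. For the TH2 bias it gave 6 to 7, 6 and 7 against TH1, TH17 and Treg cells in WT and 6, 5 to 6 and 6 to 7 in Odc-/- cells of the Odc series, and 5 to 6, 5 and 6 in WT and 5 to 6, 6 to 8 and 6 in Dohh-/- cells of the Dohh series. For differences of the change in TH2 cells it gave 0 to 3, 1 to 3 and 1 to 3 against TH1, TH17 and Treg cells in the Odc series and 0 to 1, 0 to 3 and 1 to 4 in the Dohh series, and for the difference between the deletions 0 to 1, 2 to 3, 4 and 1 in TH1, TH2, TH17 and Treg cells.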
